A study of Mus musculus with 4 samples.

Results

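Direct-pathway spiny neurons of heterozygous Q175 mice were compared with those of wild-type (WT) mice over all genes, with 1 library of pooled cells a side. The compared genes were the 10926 of 37620 gene identifiers with a CPM (read count scaled to library size) of at least 5 in either the D1 Q175 or the D1 WT library. The D1 Q175 animals carried 1 zQ175 allele of Htt and the Drd1-EGFP reporter. The D1 WT animals carried 2 unaltered alleles of Htt and the same reporter, a bacterial artificial chromosome (BAC) transgene in which Drd1 regulatory sequence drives EGFP. All were males aged 5 to 6 months on the C57BL6/J background. Striatal neurons, from tissue labelled dStr in the sample titles, were sorted on EGFP per the series design. Each library held RNA of 4 pooled animals with 150000 cells from each. The labels' extraction protocol speaks of frozen tissue, and how freezing and sorting followed each other is not given in the sources used here. The same pair of genotypes with a Drd2-EGFP reporter gave the indirect-pathway (D2) libraries, which are set beside D1 below and share no library with it.

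Spiny projection neurons make up most neurons of the striatum. Those of the direct pathway carry the dopamine D1 receptor, release GABA with substance P and dynorphin, and respond to dopamine through the stimulatory G protein subunit Gnal, adenylyl cyclase 5 and protein kinase A. Huntington's disease follows from a lengthened CAG repeat in the first exon of HTT, which lengthens a run of glutamines in huntingtin, and striatal spiny neurons are among the cells it affects most. The zQ175 allele is a knock-in in which expanded human exon 1 sequence sits in the mouse gene, so that mutant huntingtin is made from the mouse promoter.

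Total counts were 39444046 in D1 WT and 40246663 in D1 Q175, so that 1 CPM, scaled by the trimmed mean of M values, stood for 38.2 and 41.8 counts. The defining D1 markers Drd1, Tac1 and Pdyn stood at 1300, 824 and 273 CPM in WT cells. The D2 markers Drd2, Adora2a and Penk stood in D1 WT at 0.413%, 0.359% and 1.13% of their level in D2 WT, and in D1 Q175 at 0.235%, 0.26% and 1.16% of their level in D2 Q175. Of the other D2 markers in the table, Gpr6 and Grik3 stood at under 1% in both genotypes, Sp9 at 1.84% in WT and 2.79% in Q175, and Plxdc1 at 5.62% and 6.86%. With 1 library a group there is no replicate check, so no p-value was computed. Sizes are log2 ratios of Q175 over WT with a 95% exact counting interval in brackets, which covers counting error only, as PCR copies of a molecule were not told apart. A gene was counted as 2-fold or 1.5-fold apart by its ratio alone.

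Htt (ENSMUSG00000029104) is the gene that carries the knock-in, and its unaltered coding start is printed here to show the repeat that the allele lengthens. The 90 coding bases lie in exon 1 of the mouse gene at chr5:34761907-34761996 on the plus strand of GRCm38 (GENCODE M21). Capitals mark the glutamine run, which begins at codon 18 and holds 7 codons, 6 of them CAG and 1 CAA.
Htt: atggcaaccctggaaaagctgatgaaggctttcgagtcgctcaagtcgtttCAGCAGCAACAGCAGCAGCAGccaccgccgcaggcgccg

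Htt stood at 159 CPM in WT and 116 CPM in Q175 cells, a log2 ratio of -0.46 [-0.52 to -0.41]. It was lower in the Q175 library in D2 as well, with a ratio of -0.35. How the counting treated reads over the altered exon is not given in the sources used here, so this level is no check of the genotype labels.

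In the D1 Q175 library, 122 genes were at least 2-fold higher (1.12% of the compared genes) and 77 at least 2-fold lower (0.705%). At 1.5-fold the counts were 423 higher (3.87%) and 417 lower (3.82%). The ratio was above 0 for 4836 genes (44.3%) and below 0 for 6090 (55.7%). The counting interval lay wholly above 0 for 3063 genes (28%) and wholly below 0 for 4312 (39.5%), so at this depth counting error alone separates most of the genes from a ratio of 0. Genes of low and high level differed in direction when split into 5 equal bins by mean CPM. In the top bin of 2185 genes the median ratio was -0.15, with 7 genes 2-fold lower and 3 higher, and in the bottom bin of 2186 it was 0.08, with 42 lower and 94 higher. The 88 genes with at least 1000 CPM in either library had a median of -0.34, beside -0.04 over all compared genes. Of the 122 higher genes, 74 were under 5 CPM in D1 WT and were compared only through the Q175 library, where they had to be higher. Likewise 26 of the 77 lower genes were under 5 CPM in D1 Q175. With at least 5 CPM asked of both libraries, 48 genes were higher and 51 lower.

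**Figure D1:**
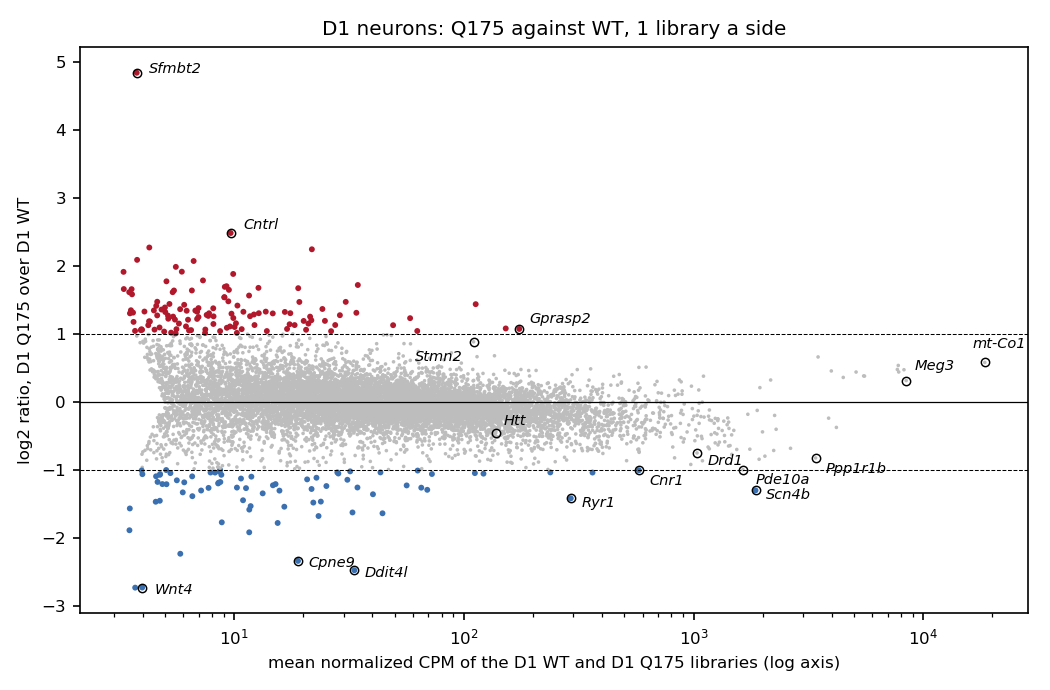
Each point is 1 of the 10926 compared genes, placed by its mean normalized CPM in the 2 D1 libraries (log axis) and its log2 ratio of D1 Q175 over D1 WT; red and blue points are at least 2-fold higher (122) and lower (77), and dashed lines mark 2-fold. Most red points lie at low CPM, while Scn4b, Ryr1 and Cnr1 are blue at far higher CPM.

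In WT cells the lower genes held more of the library than the higher ones, and in Q175 cells the sums were close. The 77 lower genes summed to 6733 CPM in WT and 2870 CPM in Q175 cells, and the 122 higher genes to 1025 CPM and 2482 CPM. Wnt4, a secreted Wnt ligand, was the lowest named gene, at 6.96 CPM (266 counts) in WT and 1.01 CPM (42 counts) in Q175 cells, a ratio of -2.73 [-3.30 to -2.32]. Ddit4l, an inhibitor of mTOR complex 1, stood at 56.6 CPM in WT and 10.1 CPM in Q175, a ratio of -2.48 [-2.64 to -2.33]. Cpne9, a copine that binds membrane phospholipid with calcium, stood at 31.7 and 6.22 CPM, a ratio of -2.34 [-2.55 to -2.16]. Gpx6, of the glutathione peroxidase family, stood at 9.65 and 2.01 CPM, 4.71-fold lower. The counts behind these genes ran from 42 to 2166 a library, so their intervals are 0.3 to 1 log2 unit wide.

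The other genes among the 15 lowest with a gene name had ratios from -1.92 to -1.54. They included Tmprss6, a membrane serine protease known from iron regulation in liver, at 18.4 CPM in WT and 4.83 CPM in Q175. B3gnt2, which extends poly-N-acetyllactosamine chains on glycoproteins, stood at 67.0 and 21.5 CPM. Clspn, which encodes the checkpoint protein claspin, stood at 49.5 and 16.0 CPM. Phex, a zinc endopeptidase known from phosphate balance, stood at 35.6 and 11.1 CPM, a ratio of -1.68 beside -2.27 in D2. Shisa2, which holds Frizzled and FGF receptors in the endoplasmic reticulum, stood at 24.0 and 6.94 CPM, and Il17rc, an interleukin 17 receptor subunit, at 13.7 and 3.97 CPM. Sec14l3, Slc4a11, Ccdc88b, Cd59a and Ankrd35 made up the rest. No theme is shared by these genes in the lists used here.

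The highest ratio belonged to Sfmbt2 (ENSMUSG00000061186), a Polycomb group gene that is imprinted in mouse. It had 8 counts in D1 WT (0.209 CPM) and 306 counts in D1 Q175 (7.32 CPM), a ratio of 4.84 [4.13 to 6.35]. Its D2 levels were 3.20 and 14.2 CPM, a ratio of 2.13. The large D1 ratio goes with a D1 WT level well under the D2 WT one. Cntrl, which encodes the centrosomal protein centriolin, stood at 2.90 CPM in WT and 16.4 CPM in Q175, a ratio of 2.48 [2.21 to 2.80]. Nrbp2, a pseudokinase, stood at 7.58 and 36 CPM, a ratio of 2.24 [2.07 to 2.43]. Rprm, a p53 target linked to G2 arrest, stood at 2.46 and 9.38 CPM. All but Nrbp2 of these were under 5 CPM in D1 WT.

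Other genes of the highest 15 covered adhesion and matrix, RNA binding and excitability. Fbn1, which encodes fibrillin-1 of extracellular microfibrils, stood at 2.54 CPM in WT and 10.8 CPM in Q175 cells, a ratio of 2.07 beside 0.43 in D2. The desmosomal cadherin gene Dsg2 stood at 1.41 and 6.15 CPM and the protocadherin gene Pcdh20 at 4.29 and 13.9 CPM. Msi1, an RNA-binding protein of neural progenitors, stood at 4.34 and 14.2 CPM, a ratio of 1.70. Cacna1g, the T-type calcium channel Cav3.1, stood at 2.27 and 7.87 CPM, a ratio of 1.77 [1.45 to 2.15] beside 3.08 in D2. Vwa5b2 had the most counts of the 15, at 16.1 and 53 CPM. Asap3, Olfm2, Echdc2 and Fam126a lay between 1.67 and 1.91. The estimated count was not a whole number in at least 1 D1 library for 38 of the 122 higher and 25 of the 77 lower genes, Wnt4, B3gnt2, Cd59a, Dsg2 and Fbn1 among them, whose reads may be shared with other genes.

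**Figure D2:**
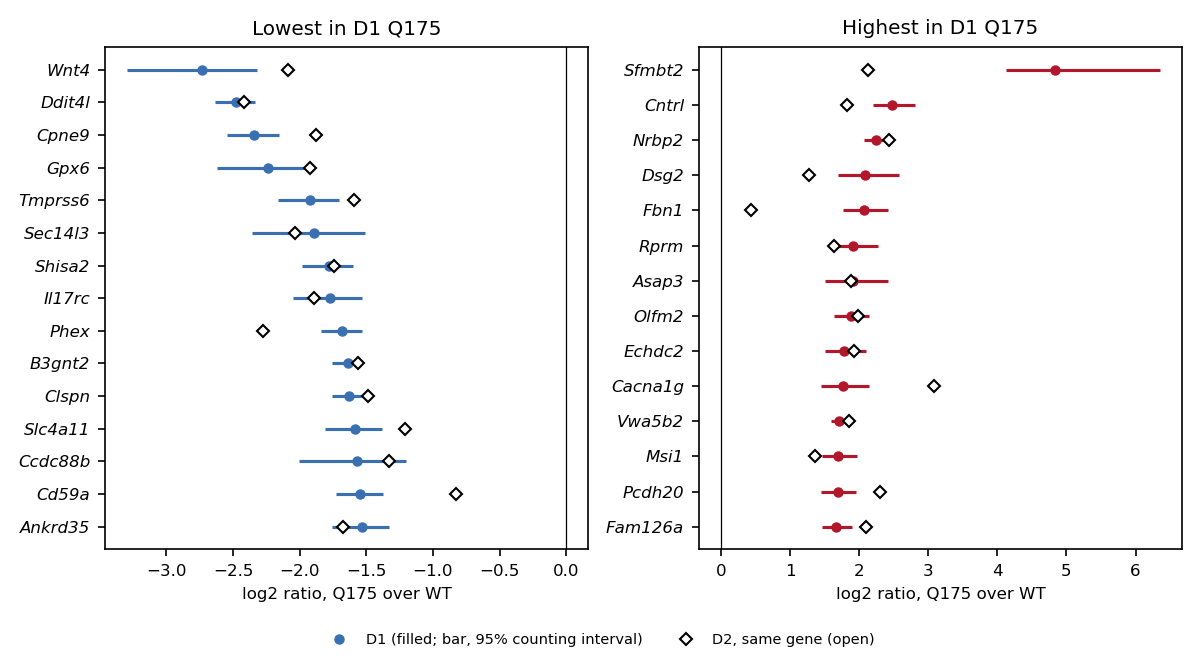
Log2 ratio of Q175 over WT for the 15 lowest and 14 of the 15 highest named genes in D1 (filled points, with the 95% counting interval as a bar) and for the same genes in D2 (open diamonds). The D2 points lie on the same side of 0 as the D1 points in all 29 genes shown, with the widest gaps at Sfmbt2 (4.84 and 2.13), Fbn1 (2.07 and 0.43) and Cacna1g (1.77 and 3.08).

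Among genes with at least 100 CPM in either library, the lowest named ratio was that of Ryr1. Ryr1, a calcium release channel of the endoplasmic reticulum, stood at 425 CPM in WT and 159 CPM in Q175 cells, a ratio of -1.42 [-1.46 to -1.38]. Scn4b, a sodium channel beta subunit abundant in striatum, stood at 2651 and 1073 CPM, a ratio of -1.30 [-1.32 to -1.29]. The cannabinoid receptor gene Cnr1 stood at 773 and 384 CPM, a ratio of -1.01, beside -1.53 in D2. Lrrk2, a kinase gene mutated in familial Parkinson's disease, stood at 320 and 156 CPM, a ratio of -1.04 beside -1.56 in D2. Dusp14, a dual-specificity phosphatase, Atf6, a sensor of unfolded protein, and Homer1, a postsynaptic scaffold, had ratios of -1.06, -1.05 and -1.04. Pde10a, the phosphodiesterase enriched in striatum, stood at 2188 and 1095 CPM. Its ratio of -0.999 fell just outside 2-fold, as did that of Tbc1d4 at -0.997, while Coro2a and Cnr1 lay just inside. Neto2 and Dock4 followed at -0.996 and -0.97.

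In CPM, the 8 largest losses were those of Ppp1r1b, Scn4b, Pde1b, Adcy5, Arpp21, Pde10a, Ppp3ca and Hpca. Ppp1r1b, which encodes DARPP-32, the phosphatase inhibitor of dopamine signalling, had the biggest difference, from 4349 CPM in D1 WT to 2452 CPM in D1 Q175, a ratio of -0.83 [-0.84 to -0.82]. Adcy5, the main adenylyl cyclase of these neurons, stood at 2599 and 1492 CPM, Arpp21, a cAMP-regulated phosphoprotein, at 2481 and 1380 CPM, and Hpca, the calcium sensor hippocalcin, at 2778 and 1690 CPM. Ppp3ca, a catalytic subunit of calcineurin, stood at 4735 and 3643 CPM, a ratio of -0.38. Their log2 ratios thus ran from -1.30 (Scn4b) to -0.38 (Ppp3ca), and all 8 were negative in D2 too.

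Mitochondrially encoded genes aside, the largest gains in CPM were those of Meg3 and Snhg11. Meg3, an imprinted nuclear noncoding RNA, stood at 7523 CPM in WT and 9335 CPM in Q175 cells, a ratio of 0.31 [0.30 to 0.32] beside 0.15 in D2. Snhg11, a host gene of small nucleolar RNAs, stood at 4832 and 6274 CPM, a ratio of 0.38 beside 0.02 in D2. The RNA helicase gene Ddx5, the arginine- and serine-rich gene Rsrp1 and Ogt, which encodes the enzyme that attaches GlcNAc to proteins, had ratios of 0.21, 0.51 and 0.30. These gains were small as ratios. At 100 CPM or more in either library, 3 genes were 2-fold higher. Gprasp2, which encodes a sorting protein of G protein-coupled receptors, stood at 113 CPM in WT and 236 CPM in Q175, a ratio of 1.07 [1.02 to 1.12]. The others were A830036E02Rik (1.08), a transcript with no assigned function, and an identifier without a symbol, and both are named only because they complete that count. Stmn2, a microtubule regulator of growing neurites, stood at 77.6 and 143 CPM, a ratio of 0.88 beside 1.97 in D2. Polr2a, the largest subunit of RNA polymerase II, had a ratio of 0.62.

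**Figure D3:**
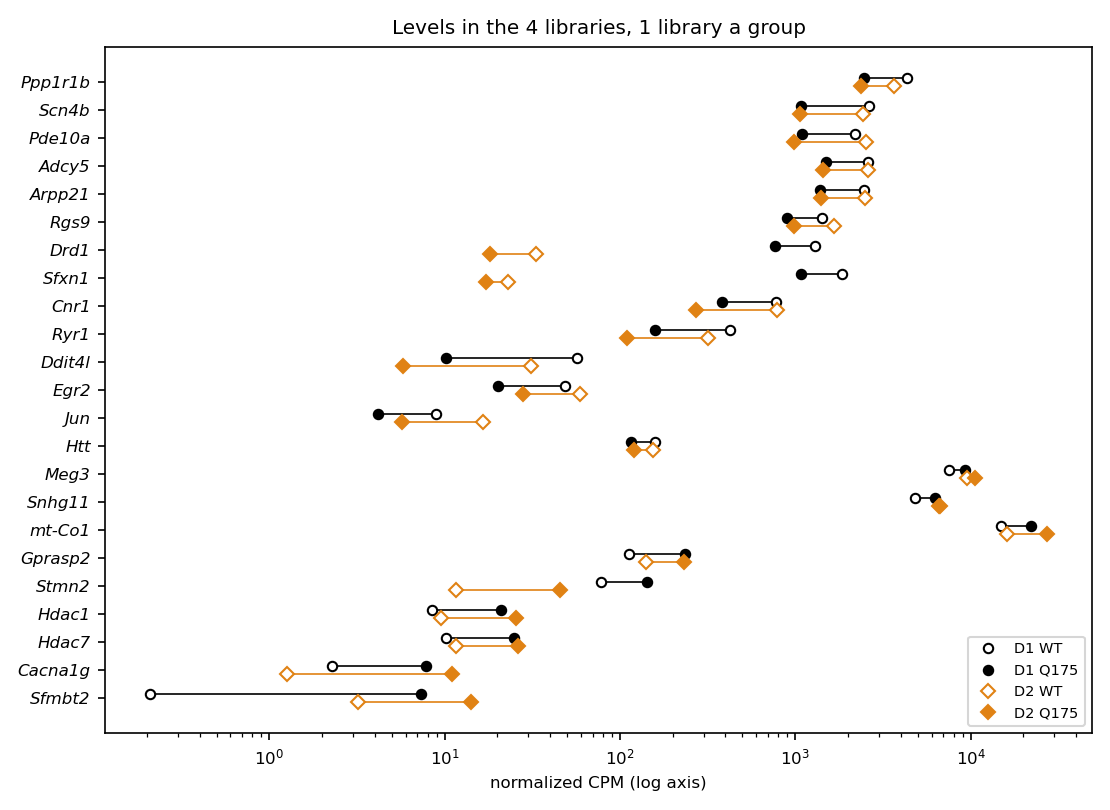
Normalized CPM (log axis) of 23 genes named in the text in the 4 libraries: open symbols are WT, filled symbols Q175, black circles D1 and orange diamonds D2, each 1 library without replicates, joined within a cell type. In D1 the genes from Ppp1r1b down to Egr2 lie lower in Q175, and Meg3, Snhg11, mt-Co1, Stmn2 and Sfmbt2 lie higher.

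Genes listed as marks of spiny neurons as a class were mostly lower in D1 Q175. The list, like the others used here, was chosen with earlier results of these data known. Its counts are therefore a description and not a test. Of 45 listed genes 44 were compared, 42 had a ratio below 0, 24 were at least 1.5-fold lower and none 1.5-fold higher. Over all compared genes 55.7% were below 0 and 3.82% at least 1.5-fold lower. Their median was -0.61, beside -0.04 over all compared genes and -0.34 over genes of at least 1000 CPM. In D2 the median of the same list was -0.60. The 4 members that were 2-fold lower were Ddit4l, Ryr1, Scn4b and Cnr1, all given above, and Rgs14, Rgs4, Pde7b and Kcnab1 had ratios of -0.98, -0.92, -0.90 and -0.87. Foxp2 (0.07) and Strip2 (0.04) were the highest members. Fewer cells of a type and less RNA per cell cannot be told apart in such bulk libraries.

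The 9 D1 markers did not share 1 direction: 5 were below 0, beside 55.7% of all compared genes, and none was 1.5-fold higher. Of the 9, 3 were at least 1.5-fold lower, beside 3.82%. Sfxn1, a mitochondrial serine transporter gene, stood at 1853 CPM in WT and 1083 CPM in Q175 cells, a ratio of -0.77. Like Drd1 it is on chromosome 13, and whether the Drd1 BAC transgene adds to its counts was not tested. Drd1 itself stood at 1300 and 771 CPM, a ratio of -0.75 [-0.77 to -0.73], and Chrm4, the muscarinic M4 receptor gene, at 437 and 270 CPM, a ratio of -0.70. Pdyn, the dynorphin precursor, had a ratio of -0.42. Tac1, the substance P precursor, stood at 824 and 889 CPM (0.11), and the transcription factor gene Isl1 at 50.3 and 67.7 CPM (0.43). Slc35d3, Ebf1 and Eya1 lay between -0.03 and 0.25. The sort relied on EGFP from a Drd1 transgene and Drd1 was lower in the Q175 library, and whether the gate took the same cells in both genotypes was not tested. The low-level D2 markers Drd2, Adora2a and Penk were 2-fold lower in D1 Q175 too, at 3.37, 3.47 and 41.7 CPM beside 8.58, 7.79 and 84.2 CPM in D1 WT. Plxdc1, the fourth compared D2 marker, stood at 5.80 CPM in WT and 6.10 CPM in Q175, a ratio of 0.07. Drd2 and Adora2a were under 5 CPM in D1 Q175 and were compared only through D1 WT, where they had to be higher. With 5 CPM asked of both libraries, 2 D2 markers remained, Penk below 0 and Plxdc1 above it. The part of D2 marker signal in other results was not tested.

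Receptor and second-messenger families differed from one another. The list of monoamine and acetylcholine receptor genes included Drd1, Chrm4 and also Adora2a, which encodes an adenosine receptor. Of its 16 compared members, 7 were 1.5-fold lower, beside 3.82% of all compared genes, with a median of -0.52. Drd2 and Adora2a, the D2 markers given above, are 2 of these 7, and without them 5 of 14 were 1.5-fold lower, with a median of -0.49. With 5 CPM asked of both libraries, 3 of 12 were, with a median of -0.41. Htr1b, the serotonin 1B receptor, stood at 16.0 CPM in WT and 5.84 CPM in Q175, a ratio of -1.45, and the nicotinic subunit gene Chrna4 at 6.25 and 2.90 CPM, -1.10. Htr2c, the serotonin 2C receptor, went the other way, from 47.5 to 79.3 CPM, a ratio of 0.74 beside 0.60 in D2. All 11 compared RGS genes, whose products speed up the shut-off of G proteins, had ratios below 0, beside 55.7% of all compared genes. Of the 11, 4 were 1.5-fold lower, beside 3.82%, and the median was -0.41. Rgs9, the striatal member, stood at 1420 and 895 CPM.

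Second-messenger enzymes were split by member. Among 34 adenylyl cyclase, G protein and protein kinase A genes, 6 were 1.5-fold lower, beside 3.82% of all compared genes. Of the 34, 3 were 1.5-fold higher, beside 3.87%, and the median was -0.18. Adcy5 and Ppp1r1b were the lowest, whereas Adcy2 (0.69) and Adcy6 (0.65), both under 5 CPM in D1 WT, were higher. Gnas (0.75) shares its locus with overlapping transcripts and is uncertain. Of 11 phosphodiesterase genes, the striatal Pde10a, Pde7b (-0.90) and Pde1b (-0.69) were 1.5-fold lower and Pde3b (0.62) 1.5-fold higher, around a median of -0.17. Gnal, the G protein subunit of dopamine signalling, stood at 1527 and 1139 CPM, a ratio of -0.42.

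Calcium handling and ion channel genes had medians between -0.42 and -0.15. Of 14 compared calcium store and pump genes, 13 were below 0, beside 55.7% of all compared genes. Of the 14, 4 were 1.5-fold lower, beside 3.82%, with a median of -0.42. After Ryr1 came Itpr1, the inositol trisphosphate receptor, at 709 CPM in WT and 436 CPM in Q175, and the plasma membrane pump gene Atp2b1 at 1760 and 1125 CPM. Atp2b4 (0.48) was the 1 member above 0. None of 19 voltage-gated calcium channel genes was 1.5-fold lower, the median was -0.31, and Cacna1g stood apart from the rest, which lay between -0.58 and 0.24. Of 40 potassium channel genes, 5 were 1.5-fold lower and none higher, with a median of -0.25. The lowest were Kcnab1, Kcns2 (-0.77), Kcnn3 (-0.69) and Kcnj4 (-0.63), a beta subunit, a silent subunit, a calcium-activated and an inward rectifier channel. Among 14 sodium and HCN channel genes the median was -0.15, Scn4b was 2-fold lower, and Hcn3, at 7.95 and 15.5 CPM, had a ratio of 0.96.

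At the synapse most postsynaptic scaffold genes were lower, and the glutamate receptor and GABA lists had medians nearer to 0. Of 28 scaffold genes 26 had ratios below 0, beside 55.7% of all compared genes, and 5 were 1.5-fold lower, beside 3.82%, with a median of -0.36. Homer1, Dlg2 (-0.77) and Itpka (-0.64) were among these 5, and act in the postsynaptic density and spine. The medians of 17 glutamate receptor genes and 17 GABA genes were -0.09 and -0.13, values whose sign turned positive under other scalings. With 5 CPM asked of both libraries, the medians were -0.18 over 16 glutamate receptor genes and -0.13 over 17 GABA genes. The lowest GABA gene was Gabrd (-0.70), the delta subunit of extrasynaptic GABA receptors. Synaptic vesicle genes had a median of -0.18 over 33 genes with none 1.5-fold lower. Neuropeptide and opioid genes had a median of 0.11 over 11 genes.

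Markers of the striosome and matrix compartments of the striatum were lower in Q175 in both lists. All 8 compared striosome markers were below 0, beside 55.7% of all compared genes, with a median of -0.25 and none 1.5-fold lower. All 7 matrix markers were below 0, with a median of -0.37. The matrix marker Cntnap3, a contactin-associated protein gene, stood at 35.1 CPM in WT and 12.6 CPM in Q175 cells, a ratio of -1.47 beside -1.06 in D2.

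Activity-dependent genes were mostly lower, with Fos as an exception. Of 30 immediate early genes 24 were compared, and 20 had ratios below 0, beside 55.7% of all compared genes. Of the 24, 9 were 1.5-fold lower, beside 3.82%, with a median of -0.49 beside -0.34 in D2. Egr2, a zinc finger transcription factor, stood at 48.6 CPM in WT and 20.2 CPM in Q175 cells, a ratio of -1.26 [-1.38 to -1.15]. Egr3 (38.4 and 18.5 CPM, -1.06), Jun (8.97 and 4.16 CPM, -1.10) and Homer1 were also 2-fold lower. Jun passed the minimum only through D1 WT, where it had to be higher. With 5 CPM asked of both libraries, 8 of 23 were 1.5-fold lower, with a median of -0.49. Egr1 had more counts, at 997 and 628 CPM, with a ratio of -0.67, and Arc, which acts in receptor uptake at spines, had -0.14. Fos stood at 31.7 and 46.1 CPM, a ratio of 0.54 [0.44 to 0.65], and it was higher in D2 Q175 as well (0.44). Btg2 (0.39) and Npas4 (0.21) were also higher in D1 Q175, Npas4 with a ratio of -0.17 in D2, and Fosb (0.02) was near 0. In the partly overlapping list of ERK pathway feedback genes, 13 of 15 were below 0, with a median of -0.41. Of the 15, 3 were at least 1.5-fold lower, Spred1 (-0.67) and Spry2 (-0.59) among them. Over the 14 with 5 CPM in both libraries the median was -0.37.

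The Egr2 promoter is printed because Egr2 had the lowest ratio of the activity genes and was the 1 gene of those with a window that held a match to the degenerate form of the serum response element (the CArG box). The window runs from 250 bases before to 50 after a RefSeq transcript start at chr10:67537316-67537615 (GRCm38.p6, plus strand), and capitals mark the match, which begins 72 bases before the start.
Egr2: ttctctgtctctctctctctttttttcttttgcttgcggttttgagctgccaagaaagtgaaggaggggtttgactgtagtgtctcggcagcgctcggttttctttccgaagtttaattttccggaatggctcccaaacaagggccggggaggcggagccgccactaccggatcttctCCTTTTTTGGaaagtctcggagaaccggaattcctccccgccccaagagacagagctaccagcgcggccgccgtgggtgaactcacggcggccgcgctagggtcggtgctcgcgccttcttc

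Of the 30 immediate early genes, 23 had such windows, and 4 patterns were searched on both strands. The degenerate form of the serum response element was found for 1 of the 23, beside 1.81% of 27025 genes, and the exact form known from the FOS gene, one of those that the degenerate form covers, for 0, beside 0.0777% of genes. The cyclic AMP response element TGACGTCA was found for 3, beside 2.03% of genes: Dusp1 (ratio -0.45), Btg2 (0.39) and Maff, which was under the CPM minimum. The EGR motif, GCGTGGGCG or GCGGGGGCG, was found for 5, beside 3.93% of genes: Fosl2 (-0.72), Nr4a1 (-0.49), Fosb, and Klf4 and Maff, both under the minimum. Genes with a motif thus lay on both sides of 0, and a match describes letters in a window, not binding.

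The circadian clock genes were all lower in D1 Q175, and most unfolded protein response genes were below 0. All 21 compared clock genes had ratios below 0, beside 55.7% of all genes. Of the 21, 5 were 1.5-fold lower, beside 3.82%, with a median of -0.45 beside -0.37 in D2. Per2, a repressor of the clock, stood at 163 CPM in WT and 102 CPM in Q175, Dbp, an output transcription factor, at 210 and 131 CPM, and Ciart at 22.3 and 13.9 CPM, each with a ratio of -0.68. Bhlhe40 (-0.61) and Npas2 (-0.60) were the other 2. The hour of tissue collection is not given in the sources used here. Of 25 unfolded protein response genes 22 were below 0 and 3 were 1.5-fold lower, Atf6 at 151 and 72.8 CPM, the chaperone gene Hspa5 (-0.62) and Sdf2l1 (-0.60), with a median of -0.33. None of 35 cytosolic chaperone genes was 1.5-fold apart in either direction, and their median was -0.17.

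Among 28 mTOR regulator genes the median was -0.07, which turned positive when libraries were scaled by their totals. Of the 28, 4 were at least 1.5-fold lower, beside 3.82% of all compared genes. The 4 members at least 1.5-fold lower were Ddit4l, Deptor (-0.84), a subunit that inhibits mTOR, the translation repressor gene Eif4ebp2 (-0.78) and Rasd2 (-0.69), which encodes the striatal GTPase Rhes and stood at 1448 and 896 CPM. Rhebl1 (0.72) was 1.5-fold higher. With 5 CPM asked of both libraries, 3 of 25 were 1.5-fold lower and none 1.5-fold higher. Eif4ebp2 (6.56 and 3.81 CPM) and Rhebl1 then dropped out. Each had passed the minimum only through the library where it was higher. Of 29 sphingolipid enzyme genes, the ceramide synthase gene Cers2 stood at 10.2 CPM in WT and 28.3 CPM in Q175, a ratio of 1.47, while Cers1, which makes shorter-chain ceramides in neurons, had -0.55 and the sphingomyelinase gene Smpd3 -0.84. The median of that list was 0.01.

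Chromatin genes held several of the higher ratios. Of 18 histone deacetylase and sirtuin genes 13 were above 0, beside 44.3% of all compared genes, with a median of 0.21 beside 0.13 in D2. Hdac1, a nuclear class I deacetylase, stood at 8.50 CPM in WT and 21.0 CPM in Q175 cells, a ratio of 1.30 [1.12 to 1.49]. Hdac7, a class IIa deacetylase, stood at 10.1 and 25.0 CPM, a ratio of 1.30 [1.14 to 1.48]. Hdac4 was 1.5-fold lower, with a ratio of -0.70. At 6.12 CPM in WT and 3.76 CPM in Q175, it passed the minimum only through WT, where it had to be higher. With 5 CPM asked of both libraries, 13 of 16 were above 0 and none was 1.5-fold lower. Hdac2, with the most counts among the nuclear class I members, had a ratio of 0.10. Of 36 Polycomb genes 3 were 1.5-fold higher, beside 3.87% of all compared genes, and none 1.5-fold lower, around a median of 0.05. Sfmbt2 and Cbx8 (0.75) were among the 3. Sfmbt2 passed the minimum only through Q175, where it had to be higher. With 5 CPM asked of both libraries, 2 of 34 Polycomb genes were 1.5-fold higher. Clustered protocadherin genes, whose products give neurons a surface identity, had a median of 0.27 over 18 compared members, of which 5 were under 5 CPM in D1 WT and passed only through the Q175 library, where they had to be higher. With 5 CPM asked of both libraries, 11 of 13 were above 0, with a median of 0.22 and none 1.5-fold apart. The summed level of the family was 1045 CPM in WT and 1011 CPM in Q175. Pcdhb3, at 3.79 and 8.81 CPM, was 2-fold higher, and reads of these similar genes may be shared.

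**Figure D4:**
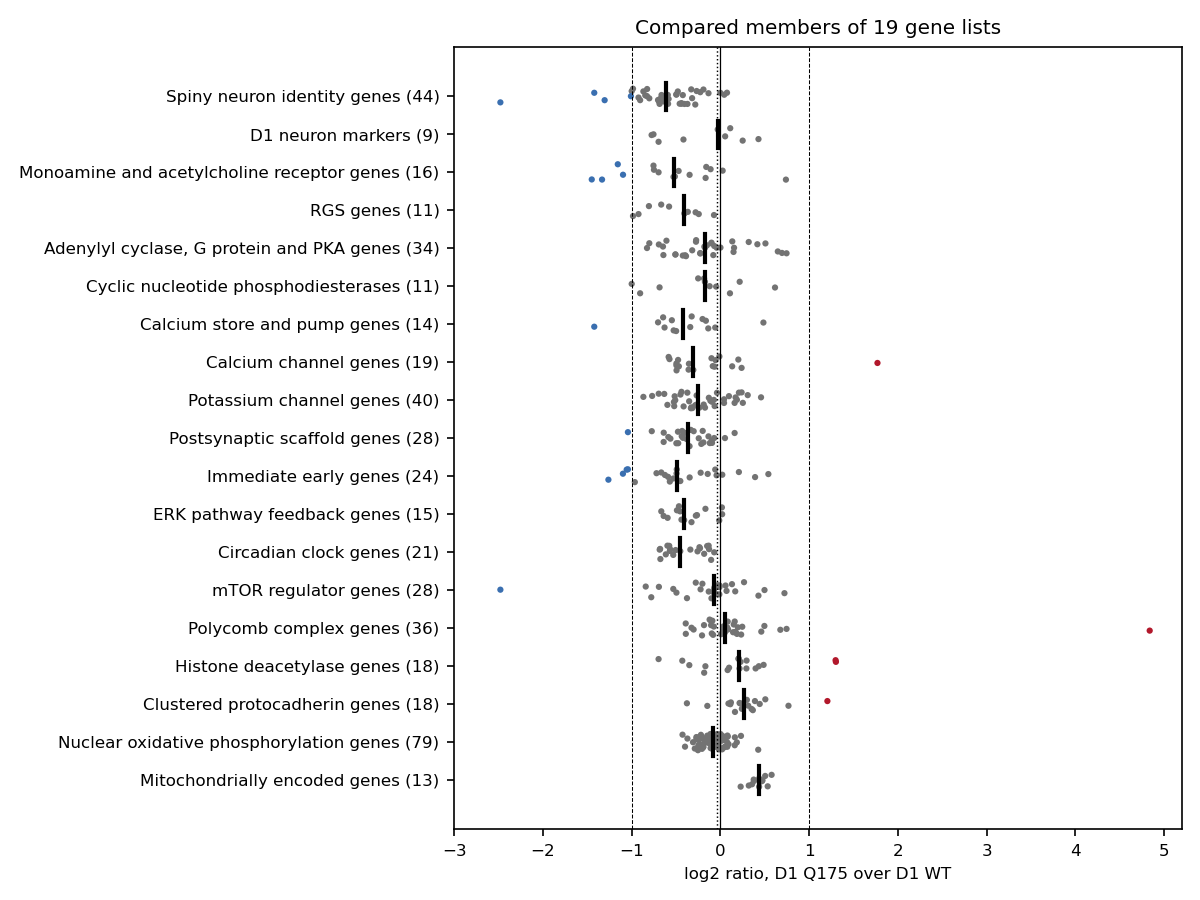
Log2 ratios of D1 Q175 over D1 WT for the compared members of 19 gene lists (points; number in brackets), with the list median as a bar, red and blue for at least 2-fold and a dotted line at the median of all compared genes, -0.04. The spiny neuron list lies left of the line (-0.61) and the mitochondrially encoded genes right of it (0.44); the medians of the D1 marker, mTOR regulator and nuclear oxidative phosphorylation lists turned positive when libraries were scaled by their totals.

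All 13 mitochondrially encoded protein genes were higher in D1 Q175, with ratios from 0.23 (mt-Atp8) to 0.58 (mt-Co1) and a median of 0.44, beside 0.67 in D2. Together they took 5.90% of the WT counts and 8.79% of the Q175 counts in D1. The nuclear genes of oxidative phosphorylation did not share this direction. Of 79 compared, none was 1.5-fold apart, and the median of -0.09 turned positive when libraries were scaled by their totals. Cytosolic ribosomal protein genes had a median of 0.01 over 76 genes. Rps27 (0.67) and its near-identical copy Rps27rt (-1.28) went in opposite directions, so both are uncertain.

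Other lists are given by their medians and counts. Over the 52 lists with at least 3 compared members, 12 medians were below -0.3 and 4 above 0.2, and 31 lists had no member 2-fold apart in either direction. None of the 47 autophagy and lysosome genes, 27 cholesterol genes, 24 genes of PGC-1 and mitochondrial dynamics, 78 mitochondrial ribosomal protein genes, 19 kinesin genes or 13 neurotrophin signalling genes was 1.5-fold apart. Glycolysis genes had a median of -0.25, led by Pfkfb3 (-0.83), an activator of the pathway, and TCA cycle genes one of -0.07. The genes of mismatch repair and other CAG repeat modifiers had a median of 0.10, with Msh3 at 0.18. Medians were -0.03 for partners of huntingtin and polyglutamine genes, 0.03 for p53 and DNA damage genes, -0.21 for Wnt pathway genes and near 0 for axon guidance genes, of which Slit1 was 2-fold higher (1.11) and Dcc 1.5-fold lower (-0.97). Dcc, at 5.28 CPM in WT and 2.68 CPM in Q175, passed the minimum only through WT, where it had to be higher. List medians were -0.07 for stathmin and tubulin genes, 0.18 for copines, -0.06 for glutathione and redox genes, -0.12 for proteasome and -0.06 for Rab genes. Those of the medians given so far in this paragraph that lie between -0.1 and 0 turned positive when libraries were scaled by their totals. With 5 CPM asked of both libraries, the Wnt pathway list lost 3 genes, Wnt4 among them, and its median was -0.09 over 14. Of 73 developmental regulator genes 4 were compared, with a median near 0.

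Markers of oligodendrocytes and astrocytes were present in both D1 libraries. The myelin gene Mbp stood at 247 CPM in WT and 285 CPM in Q175, and the astrocyte glutamate transporter gene Slc1a2 at 107 and 111 CPM. The summed level of 12 oligodendrocyte markers was 367 CPM in WT and 442 CPM in Q175 cells, and the 4 compared members, among them Mobp (0.49), had a median of 0.30. The 12 astrocyte markers summed to 167 and 179 CPM, with Slc1a3 at 0.31 and Aqp4 at 3.27 and 3.06 CPM. Microglial markers summed to 29.9 and 39.0 CPM, with Csf1r at 0.64. Endothelial and mural markers summed to 18.5 and 19.7 CPM and GABA interneuron markers to 15.5 and 12 CPM, with 1 compared member each. Oligodendrocyte precursor, ependymal, cholinergic interneuron and cortical excitatory markers had no member at 5 CPM, and each of these lists summed to between 0.65 and 6.80 CPM in WT and between 0.45 and 9.45 CPM in Q175. In these lists Slc5a7 and Slc17a6 had 0 counts in D1 WT and Tmem212 had 0 in D1 Q175. No marker of the astrocyte, oligodendrocyte or microglia lists was at 0 in either library, and the part of other cells in the ratios above was not tested.

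The genotype ratios of D1 were next set beside those of D2, which come from other libraries. Over the 10735 genes with at least 5 CPM in both cell types, Pearson's r was 0.80 and Spearman's rho 0.72, a description across genes, which are not replicates and which share the normalization. Of the 122 genes 2-fold higher in D1, 76 (62.3%) were 2-fold higher in D2, beside 1.26% of the genes compared in D1, 110 were 1.5-fold higher, beside 4.36%, and 120 were above 0, beside 44.9%. Of the 77 lower genes, 50 (64.9%) were 2-fold lower in D2, beside 1.12%, 69 were 1.5-fold lower, beside 4.94%, and 76 were below 0, beside 55.1%. With 5 CPM asked within each cell type, the shared genes were 55.7% of the D1 and 45.9% of the D2 list of higher genes, and 58.4% and 38.8% of the lower ones. Both genotype contrasts could carry a difference between the Q175 and WT pools that is not genotype, and with 1 pool each the 2 cannot be told apart.

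**Figure D5:**
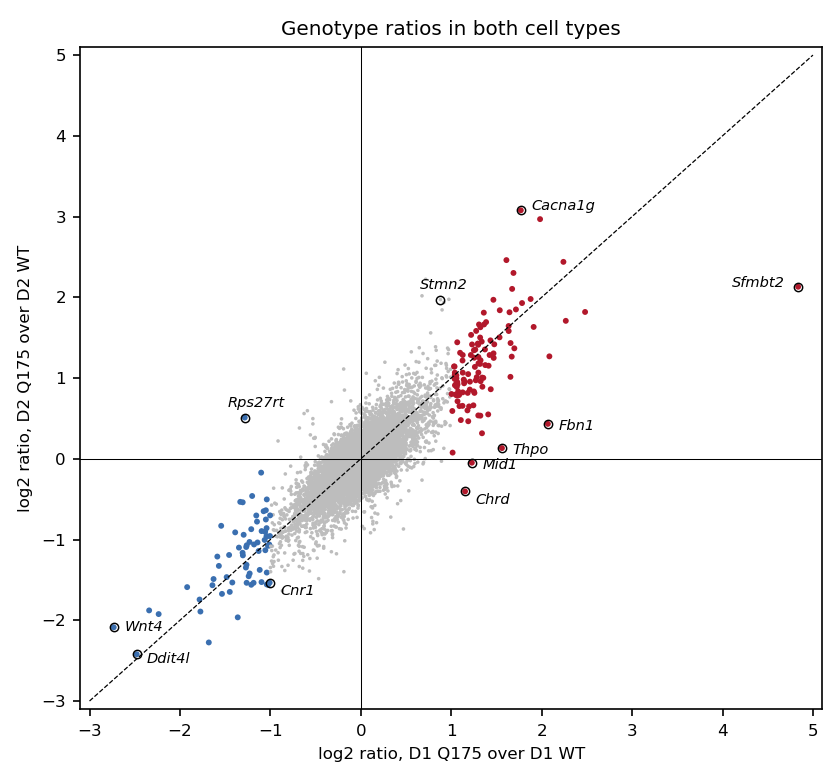
Log2 ratio of Q175 over WT in D1 (horizontal) and D2 (vertical) for the 10735 genes with at least 5 CPM in both cell types; red and blue mark genes at least 2-fold higher and lower in D1, and the dashed line marks equal ratios. Most points lie along the line, while Sfmbt2, Fbn1, Thpo, Mid1, Chrd and Rps27rt lie to 1 side of it.

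Few genes differed in size between the cell types. The median absolute difference between the D1 and D2 ratios was 0.13, and 27 of the 10735 genes differed by at least 1 log2 unit. At 100 CPM or more in both cell types, none of 2313 genes did. The difference has no test with 1 library a group, so it is given as size only. Of the 122 higher genes, 2 were at or under 0 in D2, Mid1 and Chrd, and 1 of the 77 lower genes, Rps27rt, was above 0. Mid1, a microtubule-associated ubiquitin ligase, stood at 34.9 CPM in WT and 81.8 CPM in Q175 cells, a ratio of 1.23, beside -0.05 in D2. Chrd, a BMP antagonist, stood at 6.30 and 14.1 CPM, a ratio of 1.15 beside -0.40. Thpo, the thrombopoietin gene, stood at 5.86 and 17.4 CPM, a ratio of 1.56 beside 0.13. These genes were chosen after their values were seen.

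At the edge of the CPM minimum, Igfbp3 and Enpp2 were just inside at 5.00 CPM and Zfp128 and Ogg1 just outside at 4.99 CPM in their higher D1 library. At the edge of 2-fold higher, Adgra3 (1.004) and Nr2f1 (1.01) were just inside and Fahd2a (0.997) and Abca7 (0.99) just outside. Gene length and base composition went with small differences in the median ratio. Among 5 equal bins of genomic span, the bin of the longest genes had a median of -0.10 and the other 4 had medians from -0.03 to -0.01. Over 5 bins of GC content the medians lay between -0.05 and -0.02.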

How the data were processed

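RNA of FACS-sorted EGFP-positive striatal neurons was sequenced as 50-base paired reads, 4 samples a lane, per the labels and series design; the labels' extraction protocol speaks of frozen tissue. The authors deposited a table of expected counts (estimated counts, 16.3% of them more than 0.001 from a whole number) and a table of FPKM, counts scaled by the authors to length and depth. The submitters' processing notes name CASAVA 1.8.2; the aligner, counter, annotation and build were not given in the sources used here.

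Counts were rounded, and 32897 of 37620 identifiers were matched to symbols. Scaling used TMM factors over all 4 libraries (edgeR 4.0.16, R 4.3.3). Log2 ratios used a prior count of 2, and intervals are exact conditional binomial (Clopper-Pearson), tested on simulated counts (scipy 1.17.1). Groups came from the labels' genotype and cell subtype. The genotype contrast in D2 was computed alike. No p-value was computed. Alternatives were other scalings, CPM minimums, folds, a prior count of 0.5 and the FPKM; list counts with 5 CPM in both libraries, and a receptor list without D2 markers, were added after seeing the data.

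Named genes were the 15 highest and lowest ratios with an interval excluding 0, the 10 highest and lowest at 100 CPM, the 8 largest CPM gains and losses, Htt, D1 markers, genes at the thresholds, and, for each of 59 lists, up to 3 at each end and all 2-fold members; others are listed for context. Unnamed models were skipped, and a few named genes are not reported here. Members and lists were chosen with earlier results of these data known. Sequences are GENCODE M21 and RefSeq GRCm38.p6; gene coordinates are otherwise omitted because the tables' build is unknown.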

Additional observations from a re-analysis of the deposited data

Results flagged for a closer look

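Among 233 genes examined for this flag, the counting intervals of D1 and D2 lay on opposite sides of 0 for 6. All 6 are named here or were 2-fold apart in D1. The difference was not tested, since each group has 1 library. Such opposite intervals occurred in 512 of the 10926 compared genes (4.69%). The D1 ratio minus the D2 ratio, on the log2 scale, was 1.56 for Chrd (1.15 in D1 and -0.40 in D2), 0.54 for Tac1 (0.11 and -0.43), 0.42 for Ogt (0.30 and -0.13), 0.38 for Npas4 (0.21 and -0.17), 0.26 for Ddx5 (0.21 and -0.05) and -1.79 for Rps27rt (-1.28 and 0.51). Tac1 in D2 libraries stood at 108 CPM in WT and 80.4 CPM in Q175, 13.2% and 9.04% of its D1 level.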

How the results depend on the processing

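No paired analysis was possible because each group had 1 library and the labels give no replicate numbers; for the same reason no library could be left out. The counts of 122 genes 2-fold higher and 77 lower became 28 and 35 with a minimum of 20 CPM, 383 and 154 with 1 CPM, 48 and 51 with 5 CPM in both libraries, 1262 and 893 with no minimum, 423 and 417 at 1.5-fold, and 72 and 42 where the whole interval had to pass 2-fold. From the deposited FPKM they were 157 and 50 with a pseudocount of 0.1 and 71 and 32 with 1. Scaling by library totals, which moved the median of all genes by 0.10, gave 159 and 54, so that 74.6% of calls were higher, beside 61.3%; that share was 75.8% and 68.9% from FPKM, 71.3% at 1 CPM, 44.4% at 20 CPM and 48.5% with 5 CPM in both. Other scalings gave 122 to 131 higher and 76 to 80 lower genes. The median of the spiny neuron list stayed between -0.64 and -0.51 over its 12 alternatives.

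Across scalings, signs turned for 14 list medians under library totals, all of them within 0.1 of 0. Medians turned positive for glutamate receptors (0.00558, library totals), GABA genes (0.0158 and 0.0148, FPKM) and nuclear oxidative phosphorylation (0.0135 under totals; 0.0188 and 0.0184 from FPKM). Under totals and then FPKM with pseudocounts of 0.1 and 1, Rgs11 became 0.0266, 0.0576 and 0.0569, Dlg3 0.0287, 0.0477 and 0.0470, Scn1a 0.0300, 0.0282 and 0.0273, and Ryr3 0.0403, 0.155 and 0.154. From FPKM, Sucla2 became 0.159 and 0.156 and Csnk1e 0.000558 and 0.000547. Among 347 named genes, 2073 of 2658 alternative values stayed inside the counting interval. Depth limits the genes near 5 CPM, where 1 CPM is 38.2 to 41.8 counts. The cause of these shifts was not tested.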
